A study of Mus musculus with 15 samples.

Results

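Mitochondria make most of the ATP of a cell through 5 complexes of the inner membrane, and the genes described here encode the nuclear subunits of those complexes. They were taken by name from the deposited count table. A row belonged if its symbol was of the Nduf, Sdh, Uqcr, Cox4 to Cox8 or Atp5 families, with the letters that mark subunits and not assembly factors. That gave 91 genes of the 54456 in the table, of which 85 had enough counts to be tested. Complex I held 41 of them with 39 tested, complex II 4 with 4 tested, complex III 8 with 8 tested, complex IV 21 with 17 tested and complex V 17 with 17 tested. Ndufa4 and its paralogue Ndufa4l2 are counted with complex IV, where the Ndufa4 protein sits. RNA came from organoids of wild-type mouse mammary epithelium, small clusters of mammary epithelial cells grown outside the animal in DMEM/F12 with L-Ala-Gln, ITS (insulin, transferrin and selenium) and penicillin-streptomycin. Fibroblast growth factor 10 (FGF10) is a signal that mammary epithelium grows and moves towards, and bovine serum albumin (BSA) is the inert protein on the control beads. There were 5 groups of 3 libraries: organoids at 0 h, organoids with FGF10 beads or BSA beads at 36 h, and organoids with FGF10 beads or BSA beads at 72 h. All groups were wild type. Titles in the FGF10 72 h group read FGF0. Their treatment field gives FGF10 and was used. Nothing in the labels says whether replicates came from separate animals or cultures, so p-values measure the spread between these libraries, which may be technical.

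Electrons from NADH enter at complex I and those from succinate at complex II. They pass through complex III and cytochrome c to complex IV, which hands them to oxygen, and complexes I, III and IV pump protons as they do so. Complex V, the ATP synthase, lets the protons flow back through its membrane ring and uses the flow to make ATP in its catalytic head. Subunits are encoded partly in the nucleus and partly in mitochondrial DNA, with complex II wholly nuclear. Several complex IV subunits come in isoforms, among them Cox4i1 and Cox4i2, that differ between tissues or with oxygen supply.

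The 3 genes called higher with FGF10 than with BSA at 72 h all encode parts of the ATP synthase. Their promoters are shown because they are the members called higher in that comparison. Each run below covers 150 bases before the transcription start to 30 after it, 5′ to 3′ on the gene's strand, from RefSeq on GRCm38.p6. Capitals mark a match to the motif of the factor YY1.
Atp5b, chr10:128083157-128083336, plus strand: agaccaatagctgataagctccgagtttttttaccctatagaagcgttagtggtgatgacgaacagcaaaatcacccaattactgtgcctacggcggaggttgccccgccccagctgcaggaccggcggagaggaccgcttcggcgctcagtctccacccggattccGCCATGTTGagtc
Atp5g3, chr2:73911297-73911476, minus strand: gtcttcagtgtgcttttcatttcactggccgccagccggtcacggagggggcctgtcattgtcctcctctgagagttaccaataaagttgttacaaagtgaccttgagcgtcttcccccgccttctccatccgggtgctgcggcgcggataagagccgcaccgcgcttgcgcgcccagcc
Atp5pb, chr3:105959234-105959413, minus strand: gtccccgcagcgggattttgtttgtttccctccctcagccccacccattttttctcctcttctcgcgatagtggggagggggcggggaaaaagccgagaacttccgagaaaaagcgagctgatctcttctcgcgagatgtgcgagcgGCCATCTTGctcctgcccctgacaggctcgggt
The YY1 match began at base 18 after the start in Atp5b and at base -3 in Atp5pb. Promoters of 300 bases, from 250 before the start to 50 after it, were matched by symbol for 70 of the 91 genes. They were searched on both strands for motifs of 3 factors known to act on respiratory chain genes. The YY1 letters, GCCATNTTG, were in 11 of the 70 (15.7%) and in 2.9% of the 27025 genes in the promoter table. The core of the NRF1 motif, TGCGCANGC, was in 12 (17.1%) against 4.7%, and the GABP letters, CCGGAAG, were in 17 (24.3%) against 9.93%. The promoters of Atp5b, Atp5g3 and Atp5pb held no match to the NRF1 or GABP letters, so no matches overlapped there.

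Each library held 11965322 to 24261233 counted fragments. The label of mammary epithelium was checked against its markers. The summed level of 6 luminal genes lay between 12484 and 41666 CPM (fragments of a gene scaled to library size) over the 15 libraries and that of 6 basal genes between 7226.5 and 19768 CPM. No gene of either list was at 0 in a whole group. FGF10 36 h replicate 4 stood apart. It had the highest level of the 15 libraries for 60 of the 85 tested members and the highest of its own group for 73. The members summed to 35096 CPM there, against 23574 and 21429 CPM in FGF10 36 h replicates 1 and 3. The 13 subunit genes of mitochondrial DNA ran the other way, with 9652 CPM in replicate 4 against 32859 and 27944 CPM in replicates 1 and 3. What sets this library apart was not tested, and the counts and medians that it moves are given with and without it.

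Subunits of 1 complex are needed in fixed ratios, but the members of 1 complex also include isoforms and paralogues. Levels of mRNA per length ranged widely between members. Median level over members, in CPM per kilobase of merged exon (FPKM), was 95.4 for complex I, 116 for complex II, 233 for complex III, 126 for complex IV and 136 for complex V. The highest member was Ndufa1 in complex I (545 FPKM), Sdhd in complex II (216 FPKM), Uqcr10 in complex III (694 FPKM), Cox6a1 in complex IV (1219 FPKM) and Atp5b in complex V (687 FPKM). Sdhd anchors its complex in the membrane, and Atp5b, the catalytic beta subunit, is the only catalytic subunit among these 5. The lowest tested members were Ndufb4 (2.65 FPKM), Sdhc (46.9 FPKM), Uqcrc2 (75.3 FPKM), Ndufa4l2 (1.44 FPKM) and Atp5g2 (1.72 FPKM). Of these, Ndufa4l2 is a paralogue of Ndufa4, and Atp5g2 encodes the same ring subunit as Atp5g3. Merged exon length counts all annotated exons (6443 bases for Atp5l and 6883 for Ndufab1). The FPKM of a gene whose transcripts are shorter than that can be too low. Fragments that matched several places were not counted, so the levels of members with near-identical copies elsewhere are uncertain. Copies named as pseudogenes in the table exist for Atp5c1, Atp5k, Atp5l, Atp5pb, Cox5b, Cox7c, Ndufa12, Ndufab1, Ndufs5 and Uqcrh. The copy had more counts than the gene for Cox5b (59644 on the copy against 15732), Ndufa12 (49755 against 12066), Ndufs5 (25083 against 14751) and Ndufab1 (9401 against 6203). Among the tested members, Ndufb4c, Ndufs6b and Cox6c2 each have 1 annotated exon. Ndufb4c had 4672 counts (48.0 FPKM), against 1269 for Ndufb4. Ndufs6b and Cox6c2 had fewer counts than Ndufs6 (3262 against 47162) and Cox6c (4042 against 112520). How fragments divided within these pairs was not tested. Atp5g1, Atp5g2 and Atp5g3 all encode the same mature ring subunit of the ATP synthase. Atp5g3 had 495 FPKM, Atp5g1 16.4 FPKM and Atp5g2 1.72 FPKM on average, so Atp5g3 supplied most of the counted ring mRNA in these organoids.

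The muscle and testis isoforms were low or not seen. Cox8b, a heart and skeletal muscle isoform, and Cox8c, a testis isoform, had 0 counts in all 15 libraries, which allows up to 0.127 to 0.29 CPM per library (3 counts, counting error only). Cox6a2, the muscle isoform of Cox6a1, had 26 counts over all libraries and Cox7b2 had 3. These, with the copies Ndufa11b and Ndufb11b, are the 6 members that were not tested. The tested isoforms of this kind were Cox7a1 at 1.36 to 6.33 CPM and Cox6b2 at 5.45 to 13.4 CPM per library. Skeletal muscle markers summed to 14.5 to 27.7 CPM and brown adipocyte markers to 1.76 to 7.79 CPM.

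Most members stayed near their 0 h level. In all 4 later groups, 67 of the 85 tested members (78.8%) had a fitted level within 1.5-fold of 0 h, against 7204 of the 18140 tested genes (39.7%). Without FGF10 36 h replicate 4 the shares were 83.5% of members and 39.5% of genes. The genes were not matched to the members for level, and counting error is larger where counts are few. Summed over members, levels were 27795, 25235 and 22818 CPM at 0 h. At 36 h they were 23574, 21429 and 35096 CPM with FGF10 and 23082, 28818 and 23818 CPM with BSA. At 72 h they were 26526, 24196 and 25106 CPM with FGF10 and 19789, 21181 and 19293 CPM with BSA. The 3 BSA 72 h libraries were below all other libraries, and the groups at 36 h overlapped each other and 0 h. For complex V alone the sums at 72 h were 9051 to 9498 CPM with FGF10 and 6260 to 6605 CPM with BSA.

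**Figure D1:**
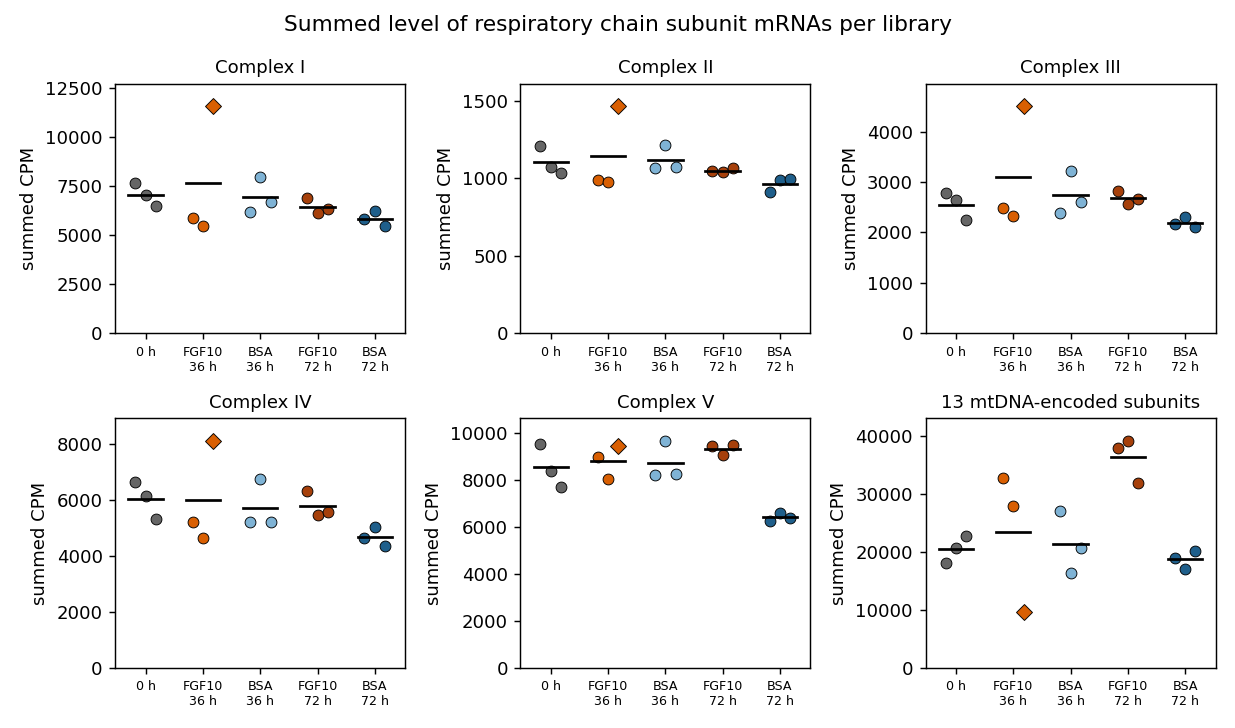
Summed CPM of the member genes of each complex, and of the 13 subunit genes of mitochondrial DNA, in each library (points; the diamond is FGF10 36 h replicate 4; bars are group means, n = 3). Complex V sums with FGF10 at 72 h (9051 to 9498 CPM) lie above those with BSA (6260 to 6605 CPM), and the diamond is highest in complexes I to IV and lowest in the panel of mitochondrial DNA.

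At 72 h, 3 members were higher and 1 was lower with FGF10 than with BSA, among 85 tested. Over all tested genes 5.99% were called in this comparison, 3.01% higher and 2.98% lower, so the members' shares are near the background. All 3 higher members belong to the ATP synthase. Atp5b, the catalytic beta subunit (chr10:127919142-127926260 on GRCm39), had 3235, 3353 and 3512 CPM with FGF10, against 1916, 2044 and 2167 CPM with BSA. Every FGF10 library was above every BSA library. The log2 difference was 0.72 ± 0.16 (standard error; 95% interval 0.39 to 1.05), with an adjusted p of 0.0174 by edgeR's quasi-likelihood test. Atp5g3, a gene for the proton-carrying ring (chr2:73738791-73741670), had 1400.3, 1259.7 and 1323 CPM with FGF10, against 792, 835 and 791 CPM with BSA. Its groups did not overlap either, and its log2 difference was 0.72 ± 0.16 (edgeR adjusted p = 0.0206). Atp5pb, the b subunit of the stalk that holds the head still (chr3:105850014-105867415), had 343, 303 and 321 CPM with FGF10, against 224, 221 and 224 CPM with BSA, a log2 difference of 0.53 ± 0.13 (edgeR adjusted p = 0.0287). Atp5pb has a pseudogene row, Atp5pb-ps, with 45197 counts over the 15 libraries, against 73931 for Atp5pb itself. That row differed by 0.52 ± 0.12 (edgeR adjusted p = 0.0199), and how fragments divided between the copies was not tested.

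None of the other 14 ATP synthase genes passed the test, and 12 of the 14 had a fitted difference above 0. The exceptions were Atp5h (-0.08 ± 0.12) and Atp5md (-0.07 ± 0.17). The median log2 difference over the 17 was 0.45, against 0.20 over all members and -0.01 over all tested genes. In 13 of the 17 every FGF10 library was above every BSA library, and in none was every one below. Over all members this held for 46 above and 3 below of 85, and over all tested genes for 21.9% above and 21.7% below. Atp5a1, the alpha subunit that pairs with beta in the head, had 990.0, 1023 and 1122 CPM with FGF10, against 783, 799.9 and 835 CPM with BSA. Its log2 difference was 0.37 ± 0.14 with an edgeR adjusted p of 0.119. Of the other ring genes, Atp5g1 had 83.1, 74.4 and 85.9 CPM with FGF10, against 62.0, 64.0 and 51.7 CPM with BSA (log2 difference 0.45 ± 0.26, edgeR adjusted p = 0.31). Atp5g2 had 3.72, 3.46 and 3.90 CPM with FGF10, against 2.31, 2.42 and 2.83 CPM with BSA (log2 difference 0.55 ± 0.20, edgeR adjusted p = 0.114). The groups of all 3 genes were separate. Atp5l, the small g subunit of the membrane part, overlapped between the groups, with a log2 difference of 0.05 ± 0.14. Epithelial markers moved as well. The 6 luminal markers summed to 17364 to 19367 CPM with FGF10 at 72 h, against 12484 to 13508 CPM with BSA, with 1 called higher. The 6 basal markers summed to 18229 to 19768 CPM with FGF10, against 8284 to 10030 CPM with BSA, with 2 called higher and 1 lower. Of these, Krt14 had 10293 to 13624 CPM with FGF10, against 3392 to 3917 CPM with BSA. Krt5 had 2833 to 3230 CPM, against 1213 to 1337 CPM. Myh11 had 42.3 to 54.7 CPM, against 65.7 to 110 CPM, and Oxtr had 61.0 to 121 CPM, against 126 to 141 CPM. Acta2 and Trp63 overlapped between the groups. The part of the epithelial markers in the ATP synthase differences was not tested. In bulk RNA fewer cells of a type and less RNA per cell cannot be told apart.

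**Figure D2:**
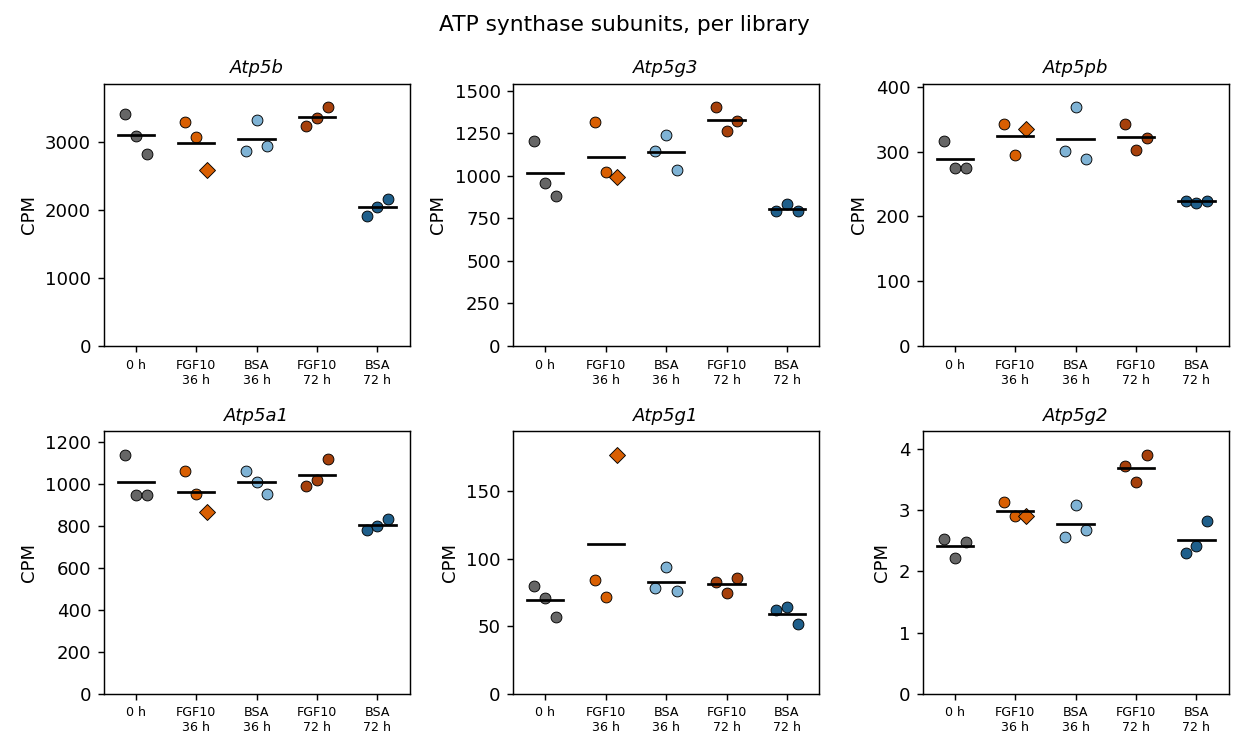
CPM of 6 ATP synthase genes in each library (points; the diamond is FGF10 36 h replicate 4; bars are group means, n = 3). In each panel the 3 FGF10 72 h libraries lie above the 3 BSA 72 h libraries, for Atp5b at 3235 to 3512 CPM with FGF10 against 1916 to 2167 CPM with BSA.

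These counts rest on few libraries. At 72 h edgeR called 0 members when FGF10 72 h replicate 4 or any 1 of the BSA 72 h libraries was left out, and 0 when BSA libraries 2_1 and 2_2, which share a number, were summed. It called 1 when FGF10 72 h replicate 2 or 3 was left out, and 7 when BSA 36 h replicate 2 was. FGF10 36 h replicate 4 is in neither group compared here. Without it the filter, scaling and spread were all fitted again. In that fit 14 members were called higher and 1 lower, 8 of the 14 in complex V, and 5.84% of all genes were called higher and 4.56% lower.

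The lower member was Cox4i2, an isoform of the complex IV subunit Cox4i1 that is known from other cells to be induced by low oxygen. Cox4i2 (chr2:152596093-152606957 on GRCm39) had 2.76, 3.97 and 2.32 CPM with FGF10 at 72 h, against 8.11, 7.90 and 6.87 CPM with BSA at 72 h. The groups did not overlap, and the log2 difference was -1.35 ± 0.32 (95% interval -2.02 to -0.67, edgeR adjusted p = 0.0246). At 36 h it had 1.37, 1.37 and 1.33 CPM with FGF10, against 2.91, 4.31 and 3.27 CPM with BSA. That log2 difference was -1.36 ± 0.34 with an edgeR adjusted p of 0.0467, and the groups were again separate. It was the only member called at 36 h. At 0 h Cox4i2 had 1.56, 0.77 and 0.50 CPM. The FGF10 36 h libraries lay within that range (log2 difference 0.47 ± 0.36, edgeR adjusted p = 0.323), and the other later groups were higher. The log2 difference from 0 h was 1.83 ± 0.35 for BSA 36 h (edgeR adjusted p = 0.00129), 1.61 ± 0.35 for FGF10 72 h (edgeR adjusted p = 0.00306) and 2.95 ± 0.35 for BSA 72 h (edgeR adjusted p = 2.68e-05). Those 3 calls held under all 21 alternative settings, while the call at 72 h between FGF10 and BSA was lost under 7 and the call at 36 h under 15, with adjusted p up to 0.145 and 0.134. The losses at 72 h came without FGF10 72 h replicates 2 or 4, without any 1 BSA 72 h library, with 2_1 and 2_2 summed and with replicate numbers as blocks. At 36 h the call was lost on leaving out any 1 of the 6 libraries except BSA 36 h replicate 1, and also 0 h replicate 2 or any 72 h library.

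Ndufa4l2 is a paralogue of the complex IV subunit Ndufa4 that is likewise known as a low-oxygen gene. It had the largest negative fitted difference of the members at both times, without passing the test in the full edgeR fit. Ndufa4l2 (chr10:127350836-127353023) had 1.54, 0.25 and 0.31 CPM with FGF10 at 72 h, against 3.49, 3.54 and 3.64 CPM with BSA. The groups were separate, and the log2 difference was -2.30 ± 0.81 (edgeR adjusted p = 0.107). The DESeq2 Wald test called it at 72 h (-2.34, adjusted p = 0.0428). So did edgeR on the compared groups alone (-2.30, adjusted p = 0.00393). At 36 h it had 0.13, 0.11 and 0.44 CPM with FGF10, against 0.18, 2.75 and 0.54 CPM with BSA, where the groups overlapped (log2 difference -2.33 ± 0.98, edgeR adjusted p = 0.214). FGF10 36 h fell below 0 h, where Ndufa4l2 had 2.66, 3.10 and 0.94 CPM, by a log2 difference of -3.25 ± 0.95 (edgeR adjusted p = 0.0153). The FGF10 36 h group held 11 counts of this gene in all, and the call was lost without FGF10 36 h replicate 1 or 3 and with no filter on low counts. The common isoforms were far more abundant. Cox4i1 had 1033, 953 and 914 CPM with FGF10 at 72 h, against 806, 912 and 836 CPM with BSA, and Ndufa4 had 978, 769.7 and 825 CPM, against 598, 607 and 497 CPM. Cox4i1 differed by a log2 of 0.18 ± 0.20 (edgeR adjusted p = 0.638) and Ndufa4 by 0.60 ± 0.21 (edgeR adjusted p = 0.103).

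**Figure D3:**
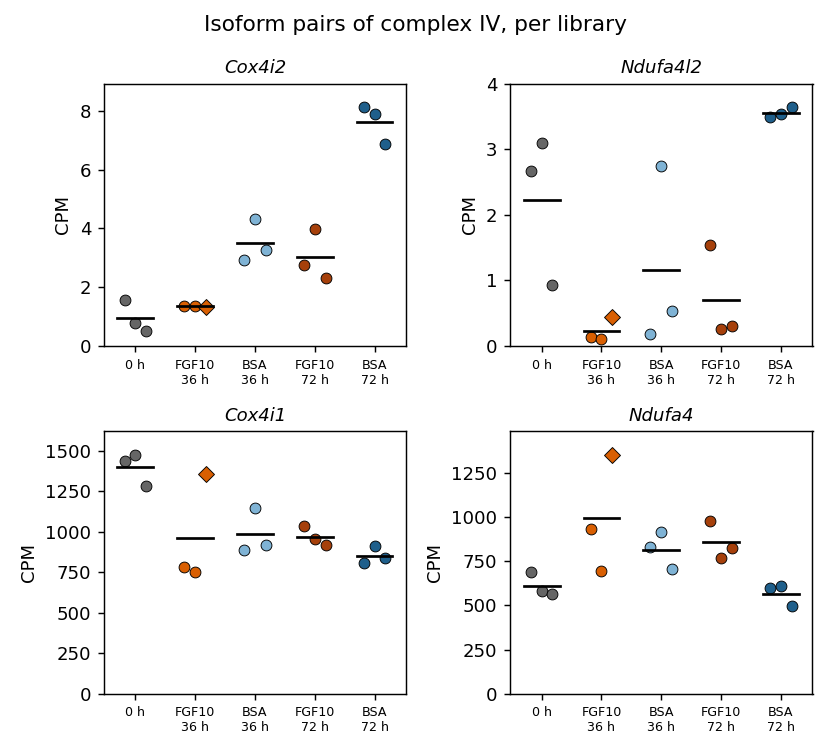
CPM of 2 isoform pairs of complex IV in each library (points; the diamond is FGF10 36 h replicate 4; bars are group means, n = 3). Cox4i2 lies lower with FGF10 than with BSA at both later times (2.32 to 3.97 CPM with FGF10 against 6.87 to 8.11 CPM with BSA at 72 h).

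Some low-oxygen and glycolysis genes also differed between FGF10 and BSA, and at 72 h so did some markers of other cell types. Of a list of 16 low-oxygen and glycolysis genes, 3 were called lower and 0 higher with FGF10 at 36 h, with a median log2 difference of -0.64 (2 lower and -0.69 without FGF10 36 h replicate 4). At 72 h with FGF10, 3 were lower (Pfkl, Pfkp and Ankrd37) and 2 higher (Eno1 and Car9), with a median of -0.68. Over all genes 1.39% were called lower and 0.954% higher at 36 h, and 2.98% and 3.01% at 72 h. Against 0 h, 9 of the 16 were higher with FGF10 at 36 h, 14 with BSA at 36 h, 8 with FGF10 at 72 h and 13 with BSA at 72 h, and 1 was lower in each. In the same order, 19.3%, 12.7%, 13.8% and 12.2% of all genes were called higher and 20.5%, 14.4%, 16% and 13% lower. Pericytes, a cell type in which Cox4i2 and Ndufa4l2 are known to be expressed, were followed by 4 markers. Their summed level was 2.28 to 5.07 CPM with FGF10 at 72 h, against 10.8 to 18.1 CPM with BSA, and 1.18 to 3.99 CPM with FGF10 at 36 h, against 2.74 to 9.02 CPM with BSA. At 0 h it was 5.61 to 29.999 CPM. None of the 4 was at 0 in a whole group and 0 of 4 were called at either time. Adipocyte markers summed to 12.9 to 74.9 CPM with FGF10 at 72 h, against 419.7 to 427 CPM with BSA, with 5 of 9 tested called lower. All 4 tested leukocyte markers and 2 of 6 endothelial markers were also called lower with FGF10 at 72 h. Endothelial markers summed to 2.87 to 12.6 CPM with FGF10 at 72 h, against 42.1 to 96.4 CPM with BSA. Fibroblast markers summed to 12.3 to 33.7 CPM with FGF10 at 72 h, against 34.5 to 79.3 CPM with BSA, with 0 of 6 called. At 36 h 1 of 9 adipocyte markers was called lower with FGF10, and 0 of the endothelial, leukocyte, fibroblast, muscle and brown adipocyte markers were called. The part of these genes and cell types in the levels of the members was not tested.

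In complexes I, II and III no member was called for FGF10 against BSA at 72 h. The median log2 difference was 0.17 for the 39 genes of complex I, 0.14 for the 4 of complex II, 0.23 for the 8 of complex III and 0.20 for the 17 of complex IV. At an unadjusted p under 0.05, 1 member of complex I and 1 of complex III stood, as did 0 of complex II. By the Wald test of DESeq2, 8 members were called, 0 of them in complexes I to III, where 10.9% of all genes were called. Other fits did call members there. Without FGF10 36 h replicate 4, 2 members of complex I and 1 of complex III were called. In a fit of the compared groups alone, 12 of complex I and 3 of complex III were, where 29.8% of all genes were called. All were higher with FGF10 except Ndufv3 of complex I (-0.53, edgeR adjusted p = 0.000554). It had 122, 108 and 101 CPM with FGF10, against 157, 171 and 147 CPM with BSA. In complex I, 2 core subunits with known roles in electron transfer were not called. Ndufs1, which carries iron-sulfur clusters, differed by 0.17 ± 0.12 and Ndufv1, which binds NADH, by 0.03 ± 0.14, with 95% intervals of -0.09 to 0.43 for Ndufs1 and -0.27 to 0.33 for Ndufv1. Sdha, the flavoprotein of complex II, had 277, 294 and 319 CPM with FGF10, against 251, 269 and 301 CPM with BSA. Sdhb, its iron-sulfur subunit, had 351, 353 and 351 CPM with FGF10, against 281, 319 and 316 CPM with BSA. Their log2 differences were 0.12 ± 0.13 and 0.20 ± 0.23, with 95% intervals of -0.15 to 0.39 for Sdha and -0.28 to 0.68 for Sdhb. In complex III, 7 of the 8 genes had every FGF10 library above every BSA library. Uqcrc1, a core protein, had 579.9, 579 and 656 CPM with FGF10, against 424, 471 and 467 CPM with BSA (log2 difference 0.41 ± 0.20, edgeR adjusted p = 0.235). Uqcrfs1, the Rieske iron-sulfur protein, had 245, 234 and 236 CPM with FGF10, against 217, 208 and 200.5 CPM with BSA (0.19 ± 0.14, edgeR adjusted p = 0.454).

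**Figure D4:**
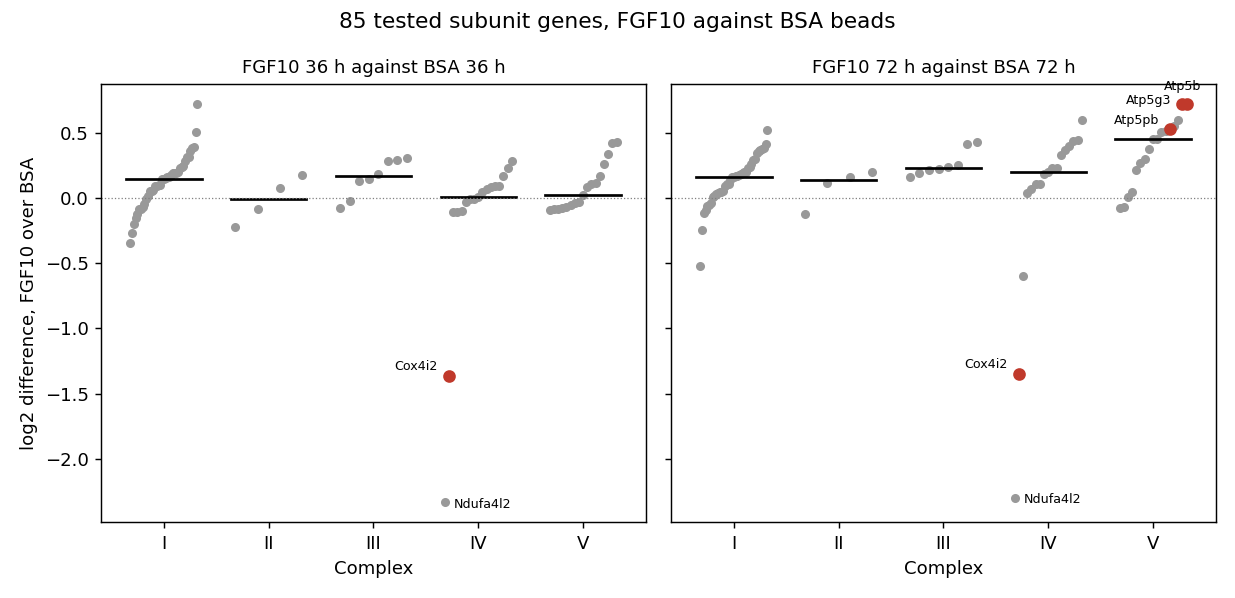
Fitted log2 difference of FGF10 over BSA for the 85 tested members by complex, at 36 h (left) and 72 h (right), with each point a gene, red points those with an edgeR adjusted p under 0.05 and bars the median of each complex. Cox4i2 lies at -1.36 at 36 h and -1.35 at 72 h, and the complex V median is 0.45 at 72 h.

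At 36 h, 1 member (Cox4i2) was lower and 0 were higher with FGF10 than with BSA, where 2.34% of all genes were called, 1.39% lower and 0.954% higher. Only 2 members had an unadjusted p under 0.05, both in complex IV. The direction of the other members hung on FGF10 36 h replicate 4. The median log2 difference of the 85 members was 0.09 with it and -0.22 without it, and without it 8 of the 85 were above 0. Without it 3 members of complex I were called lower, where 1.67% of all genes were. They were Ndufs3 at -0.47 (edgeR adjusted p = 0.0396), Ndufv1 at -0.39 (edgeR adjusted p = 0.0478) and Ndufa1 at -0.57 (edgeR adjusted p = 0.0488). Ndufv1 had 133, 139 and 194 CPM with FGF10, the last in replicate 4, against 171, 176 and 186 CPM with BSA. In complex V the median was -0.09 without that library and 0.02 with it. Atp5b had 3299, 3079.7 and 2587 CPM with FGF10 at 36 h, against 2873, 3323 and 2949 CPM with BSA, a log2 difference of -0.03 ± 0.16.

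Whether the FGF10 effect differed between 36 h and 72 h was tested as an interaction. By edgeR 0 members were called, as were 0% of all genes, and 6 members had an unadjusted p under 0.05, 5 of them in complex V. For Atp5b the effect was 0.75 ± 0.22 larger on the log2 scale at 72 h (95% interval 0.28 to 1.22, edgeR adjusted p = 0.753). DESeq2 called 1 member, Atp5b, with a log2 change of 0.72 and an adjusted p of 0.0202, and 0.0994% of all genes. The median change over members was 0.08, and 0.46 without FGF10 36 h replicate 4.

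Against 0 h, smaller shares of members than of all genes were called in each later group. With FGF10 at 36 h, 9 were higher and 3 lower, against 19.3% and 20.5% of all genes (39.8% in all). With BSA at 36 h, 4 were higher and 1 lower, against 12.7% and 14.4% (27.1% in all). With FGF10 at 72 h, 4 were higher and 1 lower, against 13.8% and 16% (29.9% in all). With BSA at 72 h, 2 were higher and 7 lower, against 12.2% and 13% (25.2% in all). These comparisons share the 0 h libraries. Cell type markers also differed from 0 h. In the order above, 3, 3, 4 and 5 of 6 luminal and 6, 6, 5 and 3 of 6 fibroblast markers were called lower, and 0 higher. Of 6 basal markers, 3, 2, 2 and 2 were called higher and 3, 3, 3 and 2 lower. The luminal sum was 28221 to 41666 CPM at 0 h and 12484 to 25558 CPM later. The part of cell types in these differences was not tested. The FGF10 36 h count of members again rested on replicate 4. Without it 4 members were higher and 13 lower, against 17.6% and 19.2% of all genes, 6 of these 17 calls being among the 12, and the median log2 difference was -0.12 instead of 0.21. Leaving out that library also moved the counts of the other groups. With BSA at 36 h, 12 were then higher and 4 lower (16.1% and 16.9% of all genes). With FGF10 at 72 h, 12 were higher and 6 lower (16.6% and 18.5%). With BSA at 72 h, 4 were higher and 16 lower (13.9% and 16.1%). The lower calls with BSA at 72 h were then near the share of all genes.

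Ndufa7, an accessory subunit of complex I (chr17:34043546-34057291 on GRCm39), was lower than at 0 h in all 4 later groups. It had 865, 886 and 798 CPM at 0 h. At 36 h it had 306, 307 and 665 CPM with FGF10 and 366, 575 and 416 CPM with BSA, and at 72 h it had 496, 432 and 398 CPM with FGF10 and 416, 459.8 and 368 CPM with BSA. Every later library was below every 0 h library. The log2 difference from 0 h was -0.996 ± 0.26 for FGF10 36 h (edgeR adjusted p = 0.00762), -0.91 ± 0.26 for BSA 36 h (edgeR adjusted p = 0.0172), -0.94 ± 0.26 for FGF10 72 h (edgeR adjusted p = 0.013) and -1.04 ± 0.26 for BSA 72 h (edgeR adjusted p = 0.00893). The call was lost for BSA 36 h without its replicate 1 or 3, for FGF10 72 h without its replicate 4, and for FGF10 36 h in a fit of the groups compared alone. FGF10 36 h without replicate 4 gave -1.47. With BSA at 72 h Ndufs4, another accessory subunit of complex I, had 124, 128 and 116 CPM, against 212, 178 and 177 CPM at 0 h, a log2 difference of -0.63 ± 0.17 (edgeR adjusted p = 0.0132, or 0.0546 without BSA 72 h replicate 3).

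Cox4i1, the common isoform of its complex IV subunit, had 806, 912 and 836 CPM with BSA at 72 h, against 1436, 1471 and 1283 CPM at 0 h. Its log2 difference was -0.71 ± 0.20 (edgeR adjusted p = 0.0181). That call was lost, with adjusted p up to 0.0716, without 0 h replicate 2, BSA 72 h replicate 2_1 or replicate 3, or with 2_1 and 2_2 summed. With FGF10 at 36 h it had 782, 753 and 1354 CPM, the last in replicate 4 and within the 0 h range, a log2 difference of -0.54 ± 0.20 (edgeR adjusted p = 0.0474) with the library and -0.86 (edgeR adjusted p = 0.000328) without it. The call was lost under 17 of the 21 alternatives, with adjusted p up to 0.221, and held with BSA 36 h replicate 2 or FGF10 36 h replicate 4 left out, with no filter and by DESeq2. Cox4i1 was thus lower and Cox4i2 higher with BSA at 72 h than at 0 h. Uqcrc2, a core protein of complex III, had 164, 171 and 159 CPM with BSA at 72 h, against 216, 208 and 204 CPM at 0 h (log2 difference -0.34 ± 0.11, edgeR adjusted p = 0.0277). Its call was lost without any 1 library of either group.

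Of the ATP synthase genes, 3 fell with BSA at 72 h against 0 h. They were Atp5b, Atp5c1, which encodes the rotating gamma subunit, and Atp5pb. Atp5b had 1916, 2044 and 2167 CPM with BSA at 72 h, against 3418, 3085 and 2823 CPM at 0 h, a log2 difference of -0.61 ± 0.16 (edgeR adjusted p = 0.0102) that was called under all 21 alternatives. With FGF10 at 72 h the Atp5b difference from 0 h was 0.12 ± 0.16 (edgeR adjusted p = 0.619). Atp5c1 differed by -0.53 ± 0.15 (edgeR adjusted p = 0.0147), a call lost without 0 h replicate 1 or without BSA 72 h replicate 3. Atp5pb differed by -0.37 ± 0.13 (edgeR adjusted p = 0.0483), a call lost under 15 alternatives, among them without any 1 library of either group.

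Atp5l and Cox7c rose against 0 h in most later groups. Atp5l had 13.4, 16.7 and 13.1 CPM at 0 h. At 36 h it had 25.4, 23.7 and 23.8 CPM with FGF10 and 20.99, 25.9 and 21.6 CPM with BSA, and at 72 h 26.2, 22.3 and 22.8 CPM with FGF10 and 24.8, 24.6 and 19.6 CPM with BSA. Every later library was above every 0 h library. The log2 difference from 0 h was 0.76 ± 0.14 for FGF10 36 h (edgeR adjusted p = 0.000862), 0.67 ± 0.14 for BSA 36 h (edgeR adjusted p = 0.00293), 0.73 ± 0.14 for FGF10 72 h (edgeR adjusted p = 0.00147) and 0.68 ± 0.14 for BSA 72 h (edgeR adjusted p = 0.00281), called under all 21 alternatives. Cox7c, a small subunit of complex IV, had 22.6, 22.4 and 25.5 CPM at 0 h and rose with FGF10 at 36 h (35.2, 30.2 and 32.8 CPM), BSA at 36 h (29.4, 37.5 and 31.8 CPM) and FGF10 at 72 h (36.4, 32.7 and 35.0 CPM). With BSA at 72 h it had 26.5, 25.0 and 27.4 CPM and was not called. The Cox7c call with FGF10 at 36 h was lost with only the groups compared (edgeR adjusted p = 0.0579). Ndufab1, the acyl carrier protein of complex I, had 25.6, 26.0 and 38.7 CPM with FGF10 at 36 h, against 22.2, 18.6 and 17.1 CPM at 0 h. Its log2 difference was 0.64 ± 0.155 (edgeR adjusted p = 0.00478), or 0.42 (edgeR adjusted p = 0.0144) without replicate 4. That call was lost with only the groups compared (edgeR adjusted p = 0.068). Ndufa4 with FGF10 at 36 h differed by 0.70 ± 0.21 (edgeR adjusted p = 0.0169), a call that was lost without replicate 4, without 0 h replicate 2 or 4, and with only the groups compared. Atp5l, Cox7c and Ndufab1 have named pseudogene copies, and their counted levels were 3.36, 26.6 and 3.60 FPKM. These values cover only fragments that matched 1 place. The row Ndufab1-ps differed by 0.95 ± 0.29 (edgeR adjusted p = 0.0208) for FGF10 36 h against 0 h. Over the later groups Atp5l-ps1 differed from 0 h by 0.73 to 1.30 and Cox7c-ps1 by 0.02 to 0.63, and neither was called. The part of the copies in the differences was not tested.

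**Figure D5:**
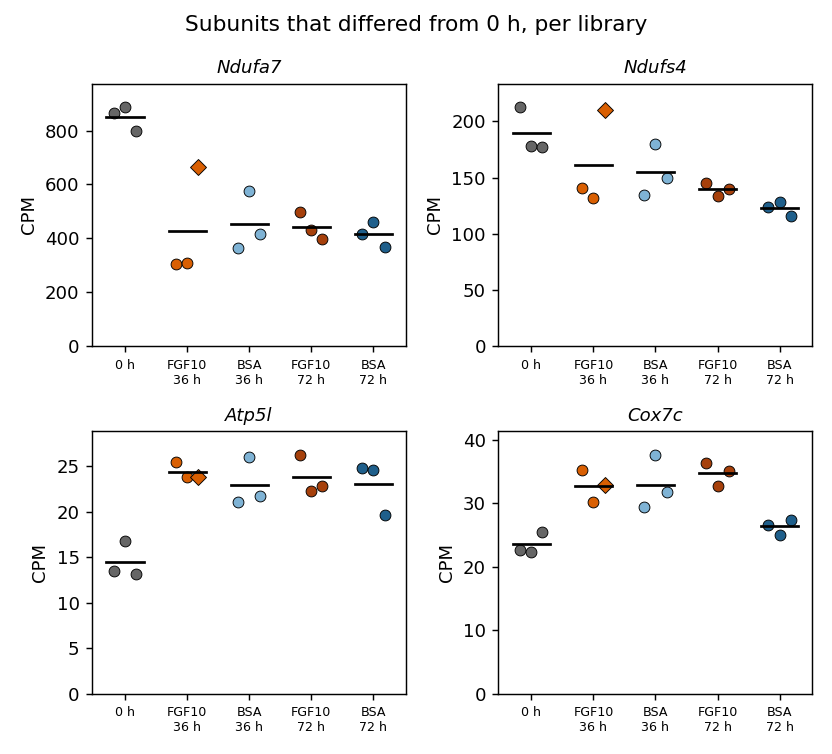
CPM of 4 members that differed from 0 h in each library (points; the diamond is FGF10 36 h replicate 4; bars are group means, n = 3). Ndufa7 lies lower in all 12 later libraries (306 to 665 CPM) than at 0 h (798 to 886 CPM), and Atp5l higher (19.6 to 26.2 CPM) than at 0 h (13.1 to 16.7 CPM).

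From 36 h to 72 h no member was called in either arm. With BSA, 0.469% of all genes were called, 0.325% higher and 0.143% lower at 72 h. The members' median log2 difference was -0.27, against -0.005 over all tested genes, with 5 of 85 above 0 and 12 at an unadjusted p under 0.05. In 38 of the 85 every BSA 72 h library was below every BSA 36 h library, against 16.5% of all tested genes. Atp5b had the lowest fitted value of the members, -0.58 ± 0.16 (edgeR adjusted p = 0.0989). DESeq2 called 4 members, with Atp5b, Atp5g3 and Atp5pb lower and Cox4i2 higher at 72 h, where it called 3.36% of all genes. With FGF10, 1.91% of all genes were called, 1.42% higher and 0.491% lower at 72 h, and 3 members had an unadjusted p under 0.05. The members' median was -0.18, and 0.13 without FGF10 36 h replicate 4. DESeq2 called 1 member there, Cox4i2, higher at 72 h, and 4.57% of all genes.

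Genes that work with these subunits were followed from fixed lists. The 13 subunits encoded in mitochondrial DNA had a median log2 difference of 1.11 for FGF10 against BSA at 72 h, and 1 of them, mt-Nd1, was called higher (1.25 ± 0.33, edgeR adjusted p = 0.036). Their summed level was 37987, 39192 and 32012 CPM with FGF10 at 72 h, against 19021, 17072 and 20262 CPM with BSA. At 36 h 0 of the 13 were called, with a median of 0.18. The 36 h median and the calls at both times rested on FGF10 36 h replicate 4, while the 72 h median did not. Without it, 7 of the 13 were called higher with FGF10 at 36 h, with a median of 0.64, and 10 at 72 h, with a median of 1.11. Over all genes 1.38% at 36 h and 5.84% at 72 h were then called higher. Assembly factors are proteins that build the complexes without staying in them. For FGF10 against BSA 0 were called at either time among the 15 tested for complex I, 4 for complex II, 6 for complex III, 20 for complex IV and 5 for complex V. Without replicate 4, 1 for complex III and 1 for complex IV were called lower at 36 h, where 1.67% of all genes were. In FGF10 36 h against 0 h, where 39.8% of all genes were called, 6 of 15 were higher for complex I, 1 of 4 for complex II, 2 of 6 for complex III and 2 of 5 for complex V, and for complex IV 6 of 20 were higher and 1 lower. Without replicate 4, where 36.9% of all genes were called, complex I had 4 higher and 1 lower, complex II 0 and 1, complex III 2 and 1, complex IV 4 and 4, and complex V 0 and 0. None of the 15 regulators of mitochondrial gene expression, among them Ppargc1a, Nrf1, Gabpa, Yy1 and Tfam, was called for FGF10 against BSA. Yy1 differed by -0.33 ± 0.19 (edgeR adjusted p = 0.328) and Tfam by 0.12 ± 0.12 (edgeR adjusted p = 0.61) at 72 h. Of 18 genes of the citric acid cycle and pyruvate dehydrogenase, 0 were called for FGF10 against BSA, with a median of 0.14 at 72 h and 0.01 at 36 h. Without FGF10 36 h replicate 4, 2 were called higher at 72 h and 0 at 36 h, where 5.84% and 1.38% of all genes were. Against 0 h, 6 were higher and 5 lower with FGF10 at 36 h (5 and 4 without replicate 4), 3 and 1 with BSA at 36 h, 2 and 3 with FGF10 at 72 h, and 0 and 5 with BSA at 72 h. In the same order, 19.3%, 12.7%, 13.8% and 12.2% of all genes were higher and 20.5%, 14.4%, 16% and 13% lower.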

How the data were processed

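Libraries were made from polyadenylated RNA with a stranded kit, per the labels' protocols. The values used were raw counts of fragments per gene, deposited by the authors as 1 table made with featureCounts 2.0.1. Per the file headers, counting was of pairs over exons by gene name and unstranded, leaving out multi-mapped fragments and those over several genes. The submitters' processing notes list cutadapt 1.9.1, HISAT2 2.2.1 and GRCm39. The annotation release is not given in the sources used here. Antisense overlap could not be separated. Exons of Ndufb6 and Ndufa13 share 39% and 30% of their bases with another gene.

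Of 54456 genes, 36316 failed filterByExpr (minimum count 10, minimum total 15). Counts were scaled by TMM and given as CPM. FPKM divides CPM by merged exon length. edgeR 4.0.16 (R 4.3.3), with its quasi-likelihood test and robust dispersions, was fitted to 15 libraries in 5 groups, with Benjamini-Hochberg adjustment over 18140 genes and calls at 0.05. Standard errors were derived from the F statistic and the log2 difference. Residual degrees of freedom were 10. The fit was tested on simulated data. Alternatives were DESeq2 1.42.0 (size factors and Wald test), no filter, replicate numbers as blocks, BSA 72 h libraries 2_1 and 2_2 summed, only the groups compared, and leaving out each library.

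Members and lists were chosen with earlier results of these data known. Named are members called for FGF10 against BSA, the 3 with the smallest adjusted p per direction in other contrasts, a panel of catalytic and isoform genes, and the extremes of level per complex. Other members (Atp5c1, Atp5h, Atp5md, Cox5b, Cox6c, Cox6c2, Ndufb4c, Ndufs3, Ndufs6, Ndufs6b, Ndufv3 and those with pseudogene rows) were named after their values were seen. So were named genes of the companion lists. A result for 1 further gene is not reported here.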

Additional observations from a re-analysis of the deposited data

How the results depend on the processing

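The 30 calls of named genes kept their direction under all 21 alternatives, and 11 stayed called under every 1 of them. Of 6085 uncalled values of named genes, 276 changed sign without a call. Leaving out 1 library gave 0 to 3 members called for FGF10 against BSA at 36 h (1 in the full fit), 0 to 15 at 72 h (4), 0 to 0 for the change between times (0), and 0 to 1 for FGF10 72 h against FGF10 36 h (0), with 0 to 3 for BSA 72 h against BSA 36 h (0). Against 0 h the ranges were 5 to 20 with FGF10 at 36 h (12 in the full fit; 6 without 0 h replicate 2, 5 without 0 h replicate 4 and 20 without FGF10 36 h replicate 3), 3 to 16 with BSA at 36 h (5; 3 without its replicate 1), 3 to 18 with FGF10 at 72 h (5; 3 without its replicate 4, 8 without FGF10 36 h replicate 3) and 4 to 20 with BSA at 72 h (9; 4 without its replicate 3). With only the groups compared, 0 members were called for FGF10 against BSA at 36 h and 33 at 72 h (where 29.8% of all genes were), 2 for FGF10 36 h and 9 for FGF10 72 h against 0 h, and 6 for BSA 72 h against BSA 36 h. With 2_1 and 2_2 summed, 0 were called for FGF10 against BSA at 36 h and 0 at 72 h. Without the filter, 7 were called for FGF10 36 h against 0 h. The DESeq2 Wald test called 8 for FGF10 against BSA at 72 h, 1 for the change, 4 for BSA 72 h against BSA 36 h and 1 for FGF10 72 h against FGF10 36 h. The cause of these shifts was not tested. Members with few counts, such as Ndufa4l2, are limited by depth.

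With the replicate numbers as a block, 0 members were called for FGF10 against BSA at 36 h and 8 for FGF10 72 h against 0 h, and the other counts stayed within 1.5 times. Deviations of same-numbered libraries from their group means had a median r of 0.093 over all genes (21 pairs, range -0.162 to 0.525, 10 above 0.1). For different numbers the median was -0.025 over 69 pairs, 13 of them above 0.1. The highest values were between BSA 36 h and FGF10 36 h, at 0.525 for replicate 1 and 0.326 for replicate 3. The main fit leaves the numbers out. The samples share only a number.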
